A study of Ovis aries with 42 samples.

Results

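In RNA sequencing of 2 neighbouring tissues of the ewe, 31 of 27054 features (0.115%) were at least 32-fold higher in the hypothalamus (HT) than in the pars tuberalis (PT), as a ratio of geometric means. They were chosen by the measured tissue difference itself. Counts were scaled to CPM (a feature's counts divided by the library's total, times 1000000), and a feature is a member where its mean log2(CPM + 0.5) over 21 HT libraries exceeds that over 21 PT libraries by 5 or more. The rule leaves out ENSOARG00000009137, whose own difference was 0.12. The HT against PT values below are therefore a description and carry no test.

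The libraries came from adult female sheep of the Rasa Aragonesa breed, in 1 of 3 reproductive states: luteal (progesterone from the corpus luteum is high), follicular (follicles ripen towards ovulation) or anestrous (ovarian cycles have ceased for the season). Each phase had 7 HT libraries (numbered 1 to 7 luteal, 8 to 14 follicular, 15 to 21 anestrous) and 7 PT libraries (22 to 28, 29 to 35, 36 to 42). No genetic change, hormone or other agent is named for any group. No label ties a library to an animal, so it is not known whether a group holds 7 ewes, and p-values measure the spread between these samples, which may be partly technical. Library totals ran from 14649356 to 37726207 counts.

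The hypothalamus is nervous tissue built of neurons, glial cells and myelinated fibres, and it drives the release of reproductive hormones from the pituitary. The pars tuberalis is an endocrine sheet of pituitary tissue around the stalk at the base of the hypothalamus, and it reads the melatonin signal of night length. The deposited table gives Ensembl sheep IDs with no names, and the reference table at hand matched 0 of them. No member's function is therefore stated, and the tissue labels could not be checked against marker genes. CPM are not divided by gene length, so a higher CPM of 1 member than of another is a larger share of counts and not a higher transcript level.

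All 31 members separated the tissues library by library, as the choice of members makes likely. Every HT library was above every PT library for each of them, against 3.62% of 15503 features with a mean of at least 1 CPM in either tissue, and nothing is read from that contrast. The lowest HT library exceeded the highest PT library by 1.45-fold to 47.7-fold, with a median of 7.16-fold. Differences between the tissue means ran from 5.02 to 7.88 on the log2 scale, with a median of 6.07. 16 members were at 6 or more and 3 at 7 or more, and 15 features of the whole table were as far apart in the other direction. In bulk tissue, fewer cells of a type and less RNA per cell cannot be told apart.

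HT means of the members ran from 25.6 to 4378 CPM with a median of 158 CPM. 24 members were at 100 CPM or more and 6 at 500 CPM or more. PT means ran from 0.0407 to 33.4 CPM with a median of 2.65 CPM, 11 members were below 1 CPM, and 6 were at 10 CPM or more. As a share of the HT mean, the PT mean was between 0.0271% and 2.91%, with a median of 1.06%. 17 members had counts in each of the 21 PT libraries, so most of the set was low in PT and not at 0. For 3 members, ENSOARG00000015772, ENSOARG00000020992 and ENSOARG00000016710, PT held 0 counts in 15, 16 and 15 libraries (these were named after their values were seen). A floor of 3 counts, the limit that a count of 0 allows, is 0.106 to 0.205 CPM in the PT libraries and covers counting error only.

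**Figure D1:**
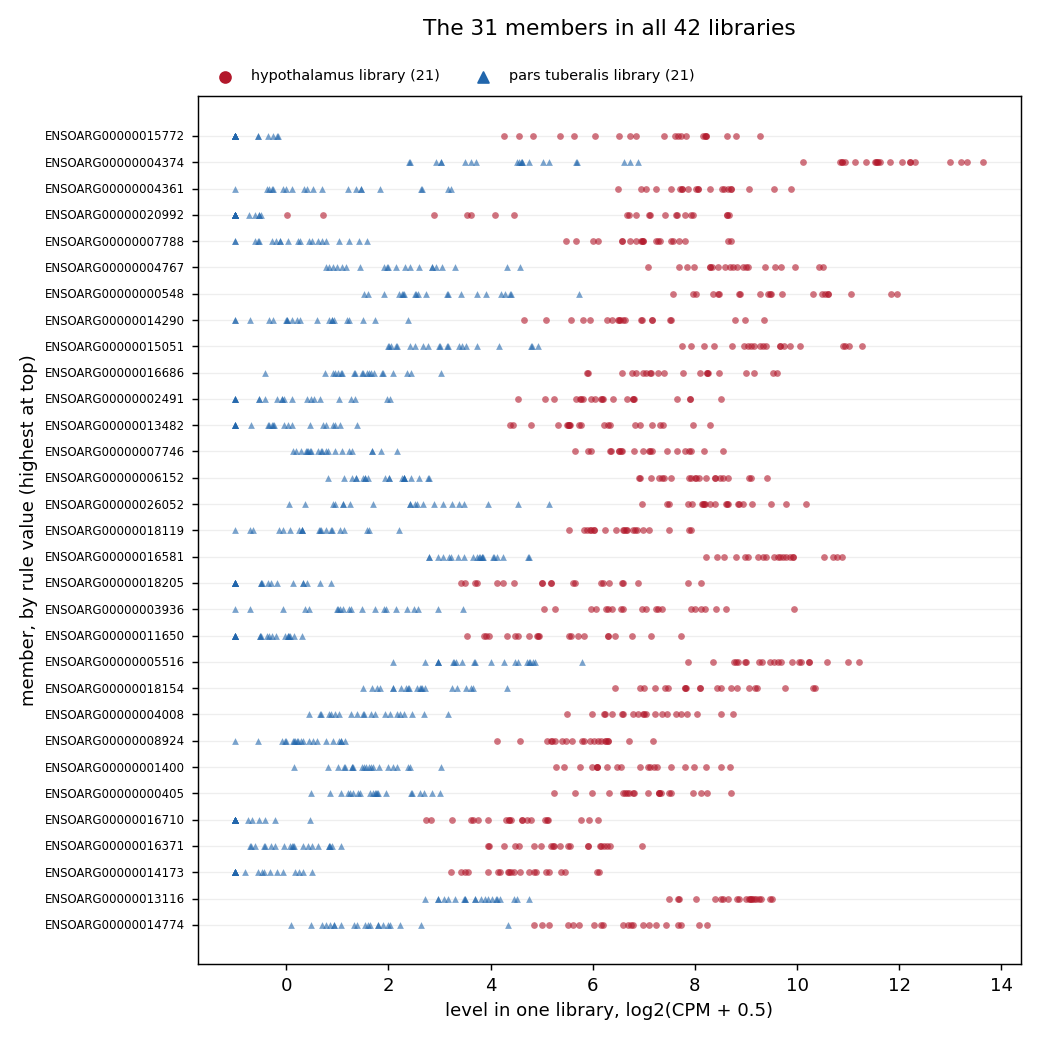
Level of each of the 31 members in each of 42 libraries, as log2(CPM + 0.5) on the horizontal axis, with members ordered from the largest tissue difference (7.88, top) to the smallest (5.02, bottom). Red circles are the 21 HT libraries and blue triangles the 21 PT libraries, which do not overlap in any row, and triangles at the left edge are libraries at 0 counts.

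ENSOARG00000004374 took the largest share of counts among the members, 33.6% of their sum in HT. Its HT level was 4378 ± 3158 CPM (SD, n = 21) and its PT level 33.4 ± 33.7 CPM (SD, n = 21), the highest PT mean of the set as well. In the luteal HT libraries the lowest, median and highest values were 1837, 2966 and 10315 CPM, in the follicular ones 1106, 3623 and 12772 CPM, and in the anestrous ones 1893, 3068 and 5087 CPM. The phases overlapped, but luteal libraries 1, 2 and 6 (9515, 10315 and 8111 CPM) and follicular library 12 were above every anestrous library. The other luteal and follicular libraries were below the highest anestrous one. In PT the lowest, median and highest values were 22.3, 32.1 and 97.3 CPM in luteal libraries. They were 4.81, 10.9 and 105 CPM in follicular ones and 4.90, 12.6 and 119 CPM in anestrous ones. All luteal PT libraries were above the follicular and anestrous medians, while the top libraries of those 2 phases reached above every luteal library.

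ENSOARG00000000548 came next by HT counts, at 1109 ± 1052 CPM (SD, n = 21) in HT and 11.1 ± 11.3 CPM (SD, n = 21) in PT. ENSOARG00000005516 had the second highest PT mean, 17.3 ± 11.9 CPM (SD, n = 21), beside 890 ± 552 CPM (SD, n = 21) in HT. Both had their highest PT value in follicular library 32, at 52.7 and 54.7 CPM.

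ENSOARG00000015772 had the largest tissue difference, 7.88. In HT its lowest, median and highest levels were 40.8, 204 and 621 CPM in luteal libraries, 48.9, 287 and 393 CPM in follicular ones and 18.6, 65.5 and 225 CPM in anestrous ones. In PT it never exceeded 10 counts or 0.390 CPM, and each PT phase had a median of 0. Its HT phases overlapped, and its PT values were too low to order the phases.

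At the threshold, the step from inside to outside was small. ENSOARG00000014774, the member closest to it at 5.02, had 116 ± 77.7 CPM (SD, n = 21) in HT and 3.20 ± 3.99 CPM (SD, n = 21) in PT. ENSOARG00000010047, just outside at 4.97, had 50.4 ± 29.7 CPM in HT and 1.03 ± 0.687 CPM in PT (SD, n = 21 each). Taken on the libraries of 1 phase at a time, the difference was 5 or more for 28 of the 31 members in luteal libraries, for 31 in follicular libraries and for 27 in anestrous libraries. 25 members met it in every phase, and the lowest single-phase value of any member was 4.52.

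Levels within the HT varied more than those of most other features with HT counts as high. The SD of log2(CPM + 0.5) over the 21 HT libraries ran from 0.60 to 2.59, with a median of 0.92. The median over the 5243 features with an HT mean of at least 25.6 CPM was 0.40, each of the 31 members was above it, and 96.7% of those features varied less than the median member. From the lowest to the highest HT library a member spanned 4.05-fold to 797-fold, with a median of 10.8-fold.

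Most of the set moved together across HT libraries. Clustered on the 21 HT libraries (average linkage, Pearson r of at least 0.7), 25 members fell into 1 block and the other 6 stood alone. Among the 465 pairs of members 62.4% had r of 0.7 or more, and the median r was 0.81. These are correlations over 21 libraries that share depth, scaling and group structure, given as a description. The median of the block, relative to each member's own median, was highest in luteal library 2 (1.73 on the log2 scale), follicular library 12 (1.66) and luteal library 6 (1.21). It was lowest in follicular library 11 (-1.51), anestrous library 16 (-1.08) and luteal library 3 (-1.07). Each extreme thus held libraries of more than 1 phase, though the high one held no anestrous library. The highest anestrous library, 15, was at 0.08, and the libraries above it were all luteal or follicular. Library 2 gave the highest HT value for 15 of the 31 members and library 12 for 11, while library 11 gave the lowest for 23.

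**Figure D2:**
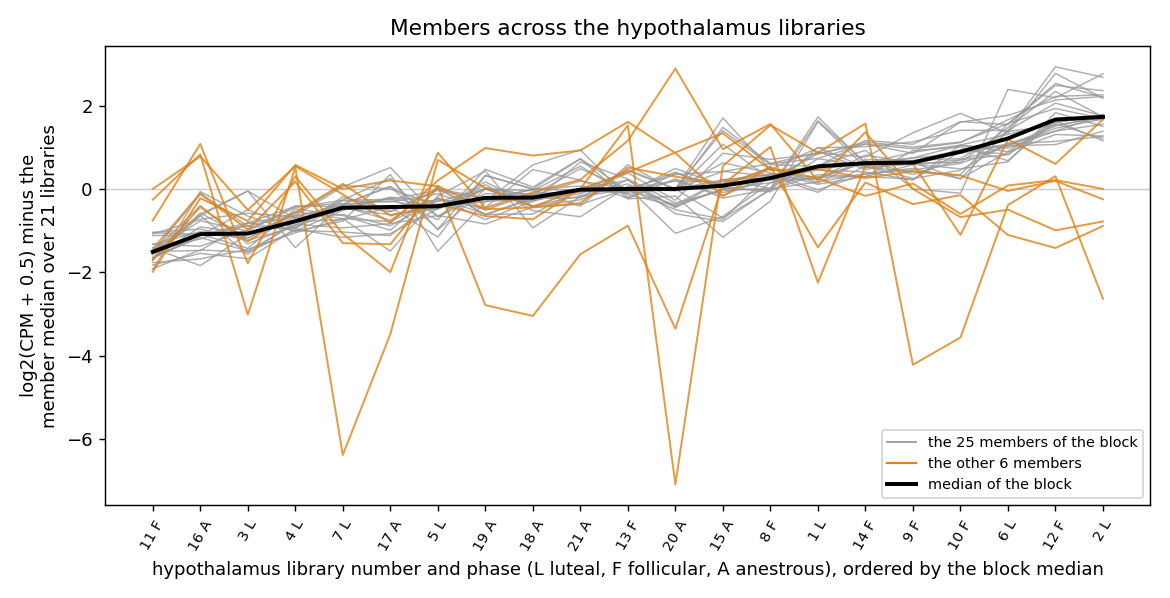
Levels of the 31 members in the 21 HT libraries, as log2(CPM + 0.5) minus the member's own HT median on the vertical axis, with libraries ordered by the block median (black line). Grey lines are the 25 members of the block, which run together from -1.51 in library 11 to 1.73 in library 2, and orange lines are the other 6, which cross them.

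The 6 members outside the block had their own patterns. ENSOARG00000020992 varied most, from 0.512 CPM (11 counts) in anestrous library 20 and 1.15 CPM in luteal library 7 to 408 CPM in follicular library 14. Its lowest, median and highest HT values were 1.15, 105 and 250 CPM in luteal libraries, 6.90, 169 and 408 CPM in follicular ones and 0.512, 137 and 244 CPM in anestrous ones. Low libraries thus occurred in all 3 phases, and PT held at most 5 counts. ENSOARG00000015772 varied second most.

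ENSOARG00000013116 varied least of the 31, from 179 to 725 CPM, with 461 ± 160 CPM in luteal, 507 ± 199 CPM in follicular and 426 ± 138 CPM in anestrous HT libraries (SD, n = 7 each). ENSOARG00000018119, a member of the block, varied second least, from 45.8 to 241 CPM. ENSOARG00000003936, ENSOARG00000008924 and ENSOARG00000016371 complete the 6. ENSOARG00000003936 reached 979 CPM in anestrous library 20, the library where ENSOARG00000020992 was lowest, and at most 389 CPM in any luteal or follicular library.

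The block's pattern in HT reached well beyond the members, and fewer other features followed its pattern in PT. Of 14722 other features with an HT mean of at least 1 CPM, 1737 (11.8%) had r of 0.7 or more with the block median over the HT libraries. Their tissue difference had a median of 0.87 and ran from -2.24 to 4.97, and 782 of them were at 1 or more. Of the 199 features with a tissue difference of 3 to 5, 123 were among them. Over the 21 PT libraries, 43 of 14554 other features (0.295%) with a PT mean of at least 1 CPM followed the median of the same 25 members at that r. So did 21 of the 31 members, all of them part of that median, so their r is partly built in. Among the 6 members outside the block the highest r was 0.68, for ENSOARG00000013116. 14 other features did so in both tissues. The HT and PT counts are over different sets of features, and the members had few counts in PT, so the counts are not on the same footing.

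The summed level of the 31 members was 13011 ± 8162 CPM in HT and 151 ± 103 CPM in PT (SD, n = 21 each). In luteal HT libraries the sum was 14718 ± 10324 CPM (SD, n = 7), with a lowest, median and highest value of 6533, 7517 and 31791 CPM. The luteal libraries formed no single level. Libraries 1, 2 and 6 were at 154%, 244% and 180% of the HT mean, and libraries 3, 4, 5 and 7 at 50.2%, 50.3%, 57.8% and 54.8%. The high place of library 1 rested on the members with the most counts: without the 10 largest it was at 104%, while libraries 2 and 6 were at 230% and 168%. Follicular libraries had 14977 ± 9382 CPM (SD, n = 7), with values of 3543, 14532 and 34123 CPM. Their extremes, library 11 at 27.2% and library 12 at 262%, were also the extremes of all HT libraries. Anestrous libraries had 9339 ± 1950 CPM (SD, n = 7), with values of 6346, 9592 and 12443 CPM. All 7 anestrous libraries lay within 48.8% to 95.6% of the HT mean, and the luteal and follicular libraries reached both above and, in library 11, below that range. The anestrous range depended on the scaling: on TMM-adjusted library sizes it was 49.2% (library 15) to 126% (library 21).

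Library 11 was also highest of the HT libraries in 2 other measures, without being alone in either. The left-out ENSOARG00000009137 held 18.6% of its counts, followed by 10.6% in luteal library 1, whose members summed to 154% of the HT mean, and the lowest share was 0.0069%. The 15 features at -5 or less in the tissue difference summed to 8.92% of their PT mean in library 11, followed by 7.90% in anestrous library 17 and 5.88% in luteal library 5, against an HT median of 0.531%. The members of those 2 libraries summed to 59.3% and 57.8% of the HT mean. The part of either in the low member levels of library 11 was not tested.

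**Figure D3:**
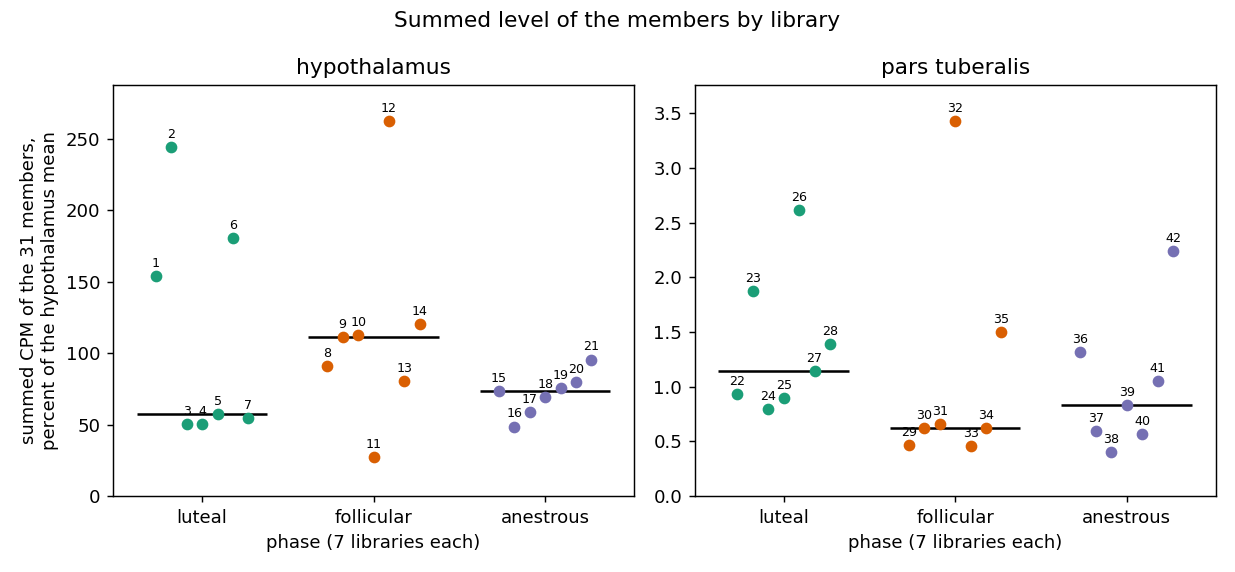
Summed CPM of the 31 members in each library, as a percentage of the mean of that sum over the 21 HT libraries, for HT (left) and PT (right, on its own scale), by phase. Points are libraries with their numbers and horizontal lines are medians of 7, and the highest PT libraries are 32 (3.43%), 26 (2.62%), 42 (2.24%) and 23 (1.87%).

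The series was designed to compare the 3 phases in each tissue. No member passed in any phase comparison within HT, by edgeR's quasi-likelihood test with Benjamini-Hochberg adjustment over the 16350 features tested, among them all 31 members. No other feature passed there either (0% called). In follicular against anestrous that background rested on anestrous library 15, without which 890 of 16419 features were called, 0 of them members. The 3 comparisons share libraries pairwise and are not independent of each other. DESeq2 and limma-voom called 0 members as well, although over all features they called 68 and 1549 in follicular against anestrous, 3 and 0 in luteal against anestrous, and 0 and 0 in luteal against follicular.

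Follicular against anestrous HT gave the members a median log2 fold change of 0.56, against -0.02 over all features tested. 27 members had positive values and 4 negative ones. Most members move together in HT and in PT, so the signs in every comparison below are not independent readings either. At an unadjusted p under 0.05 edgeR had 3 members, all with positive values, beside 1688 of 16350 features (10.3%). DESeq2 gave 5 members beside 1998 features, and limma-voom 6 beside 4407. Members were hard to resolve singly, since their median SE was 0.413 against 0.253 over all features. Single libraries moved the edgeR number of members under that p. It was 12 without follicular library 11, 7 without luteal library 2 or follicular library 13 and 5 without library 8 or 15. It was 2 without library 10 or 16 and 0 without follicular library 12. In each case 0 members passed after adjustment. The share of all features in the same fits is not given here. A change particular to the members therefore cannot be told from a general one. The median ran from 0.27 to 0.72 with any 1 HT library left out and was 0.24 under limma-voom with sample weights, where 25 members were positive and 6 negative.

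The member with the lowest p there was ENSOARG00000016686. Its lowest, median and highest values were 58.9, 303 and 737 CPM in follicular libraries, 59.9, 139 and 303 CPM in anestrous ones and 95.2, 167 and 781 CPM in luteal ones. The groups overlapped over most of their range. By edgeR's quasi-likelihood test the log2 fold change was 1.09 with an SE of 0.431 and an adjusted p of 0.463. The adjusted p was 0.263 with DESeq2 and 0.0938 with limma-voom, and between 0.121 and 0.766 in edgeR fits with 1 library left out.

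Luteal against anestrous HT gave a median of 0.41 for the members against -0.02 over all features, with 27 positive and 4 negative values. It was -0.14 under limma-voom with sample weights, where 9 were positive and 22 negative, and 0.05 in edgeR without luteal library 2, so no direction is given for the set. 4 members had an unadjusted p under 0.05 in edgeR (2 positive, 2 negative), beside 4.44% of all features. DESeq2 and limma-voom gave 4 and 2, beside 906 and 1493 of 16350 features. ENSOARG00000016371 had the lowest p. Its lowest, median and highest levels were 15.1, 28.5 and 59.6 CPM in luteal, 22.9, 71.1 and 80.7 CPM in anestrous and 14.9, 40.6 and 125 CPM in follicular HT. Luteal values lay mostly below anestrous ones, with overlap, and the edgeR log2 fold change was -1.03 with an SE of 0.424 and an adjusted p of 0.993.

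In luteal against follicular HT the members' median was -0.15 against -0.01 over all features, with 8 positive and 23 negative values. It was -0.44 under limma-voom with sample weights (1 positive, 30 negative), and in edgeR -0.47 without luteal library 2 (4 positive, 27 negative) and 0.17 without follicular library 12. In edgeR 0 members were below an unadjusted p of 0.05, beside 186 of 16350 features (1.14%). DESeq2 gave 0 members beside 254 features, and limma-voom 4 beside 1053. The lowest p belonged to ENSOARG00000011650, whose levels were 79.9 ± 65.2 CPM in follicular, 51.0 ± 45.8 CPM in luteal and 32.04 ± 24.7 CPM in anestrous HT (SD, n = 7 each). Its edgeR log2 fold change was -0.61 with an SE of 0.477 and an adjusted p of 0.9997.

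**Figure D4:**
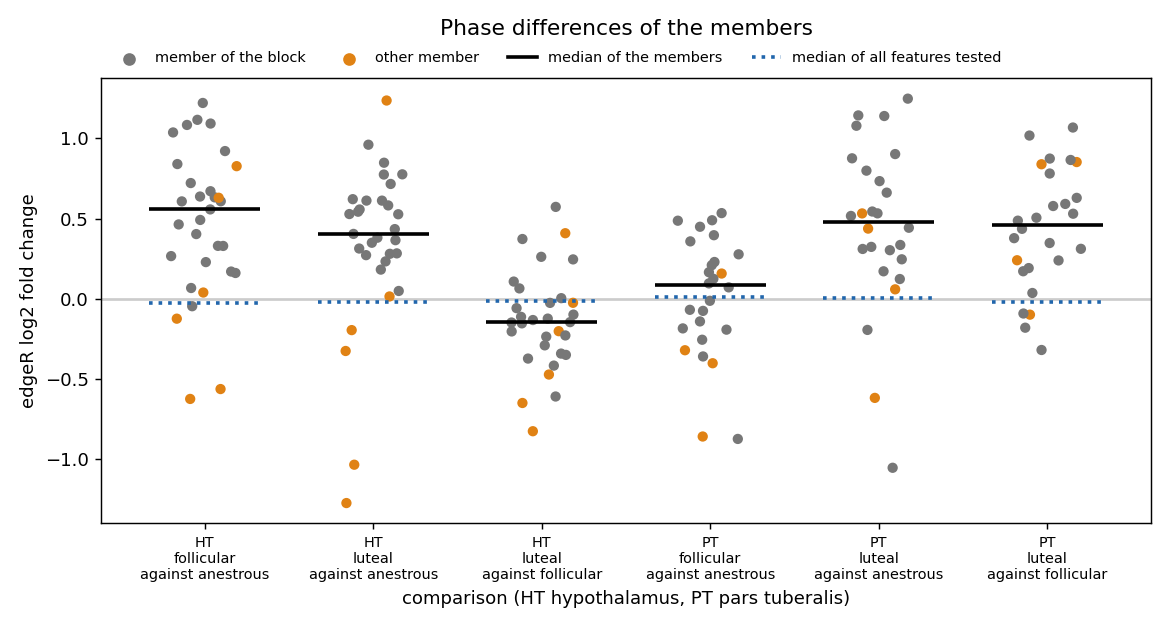
Log2 fold change of each member by edgeR in 6 phase comparisons, 3 in HT (31 members) and 3 in PT (the 26 members that passed the count filter). Grey points are members of the block, orange points the others, black lines the median of the members plotted (0.56, 0.41, -0.15, 0.08, 0.48 and 0.46 from left to right) and dotted blue lines the median of all features tested.

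In PT, 26 of the 31 members passed the count filter and were tested among 16301 features. The other 5 (ENSOARG00000015772, ENSOARG00000020992, ENSOARG00000018205, ENSOARG00000016710 and ENSOARG00000014173, named because they failed it) had PT means of 0.0407 to 0.333 CPM and at most 27 counts in a library. No tested member and no other feature passed in any PT phase comparison by edgeR's quasi-likelihood test with Benjamini-Hochberg adjustment (0% called). DESeq2 and limma-voom called 0 members too, and over all features 11 and 0 in luteal against follicular, 3 and 1 in follicular against anestrous and 0 and 0 in luteal against anestrous. The median SE of the tested members was 0.573 against 0.191 over all features, so their low counts and wide spread left room for sizeable differences.

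The nearest to a phase difference in PT was ENSOARG00000013116, the member that varied least in HT. Luteal libraries 22 to 28 had 16.8, 21.5, 7.30, 12.4, 26.4, 22.3 and 17.6 CPM, a mean of 17.8 ± 6.42 CPM (SD, n = 7). Follicular libraries had 10.5 ± 3.06 CPM (SD, n = 7), with a lowest, median and highest value of 6.06, 10.7 and 15.7 CPM, and anestrous libraries 12.3 ± 3.62 CPM (SD, n = 7), with 7.39, 13.5 and 16.9 CPM. 5 of the 7 luteal libraries were above every follicular library, and luteal libraries 24 and 25 were among the follicular values. The luteal against follicular log2 fold change was 0.85 with an SE of 0.207 (95% interval 0.42 to 1.28). The adjusted p was 0.469 by edgeR's quasi-likelihood test, 0.0622 with DESeq2, 0.594 with limma-voom, and 0.174 to 0.651 in edgeR fits with 1 library left out.

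The same member also had the lowest p in the other 2 PT comparisons. Its log2 fold change was 0.53 in luteal against anestrous (edgeR adjusted p 0.999) and -0.32 in follicular against anestrous (edgeR adjusted p 0.786).

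For luteal against follicular PT, the 26 tested members had a median log2 fold change of 0.46 against -0.02 over all features, with 22 positive and 4 negative values. 1 member had an unadjusted p under 0.05 by edgeR, beside 8.47% of all features, and the other tools gave 1 and 5. Follicular library 32 weighed on this. Without it there were 16 such members, of which 0 passed after adjustment, and the median over all tested members was 0.89. For luteal against anestrous PT the median was 0.48 against 0.01, with 23 positive and 3 negative values. 2 members were below an unadjusted p of 0.05, beside 3.23% of all features, and the other tools gave 2 and 8. That number was 0 without luteal library 26 and 5 without anestrous library 42. For follicular against anestrous PT the median was 0.08 against 0.01, and 0 members were below an unadjusted p of 0.05 by any of the 3 tools, beside 6.47% of all features in edgeR. Without library 32 its median was -0.56, with 3 such members. Shares of all features for the other tools and for the fits without a library are not given here. A change particular to the members therefore cannot be told from a general one.

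Whether a phase effect differed between PT and HT was tested directly, over 17296 features with all 31 members. 0 members and 0% of features passed in any of the 3 comparisons by edgeR's quasi-likelihood test with Benjamini-Hochberg adjustment, and DESeq2 and limma-voom called 0 members. Over all features DESeq2 called 31, 7 and 1 and limma-voom 0 in each. The PT minus HT difference had a median over the members of -0.41 in follicular against anestrous, 0.06 in luteal against anestrous and 0.47 in luteal against follicular. Under limma-voom with sample weights these medians were -0.36, 0.61 and 1.0006, with 30 of 31 members positive in each of the last 2. In each edgeR comparison 1 member had an unadjusted p under 0.05, beside 6.67%, 4.16% and 3.19% of all features. DESeq2 gave 1, 1 and 2 such members and limma-voom 0, 4 and 5. Leaving out library 32 raised the edgeR numbers for follicular against anestrous and luteal against follicular to 8 and 12. Shares of all features for the other tools and without library 32 are not given here, so these numbers have no background.

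Single members again had wide errors in these differences. ENSOARG00000014774 had the lowest p in follicular against anestrous, at -1.57 with an SE of 0.746 (edgeR adjusted p 0.732). ENSOARG00000016371 had it in luteal against anestrous, at 1.43 with an SE of 0.686 (edgeR adjusted p 0.9999). ENSOARG00000013116 had it in luteal against follicular, at 0.88 with an SE of 0.335 (edgeR adjusted p 0.99997).

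As a share of the HT mean, the summed level in PT had a median of 0.900% over the 21 libraries and ran from 0.403% in anestrous library 38 to 3.43% in follicular library 32. By phase the sum was 180 ± 85.6 CPM for luteal, 144 ± 141 CPM for follicular and 130 ± 81.8 CPM for anestrous PT (SD, n = 7 each). The lowest, median and highest libraries were at 103, 149 and 340 CPM in luteal, 59.8, 80.9 and 446 CPM in follicular and 52.4, 109 and 291 CPM in anestrous PT. The phases overlapped, and each had 1 or 2 libraries well above the rest.

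Of luteal libraries 22, 23 and 24, which share a phase with 4 other libraries and are no group of their own in the labels, only library 23 was among the highest. It stood at 1.87%, rank 4 of 21. 26 of the 31 members were above their PT median in library 23, and 3 had their highest PT value there. ENSOARG00000004361 stood furthest above its median, at 5.80 CPM against a PT median of 0.946 CPM, which is 2.12 on the log2(CPM + 0.5) scale.

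Library 22 stood at 0.934%, rank 10 of 21 and close to the median library. 13 members were above their PT median there, none had its highest PT value there and 4 had 0 counts. Its leading member was ENSOARG00000013482, at 1.21 CPM against a median of 0.345 CPM. Library 24 stood at 0.794%, below the median library and rank 13 of 21. 9 members were above their PT median, none was at its highest and 7 had 0 counts. ENSOARG00000004361 led there too, at 2.07 CPM. Library 24 had 15477537 counts, fewer than any PT library but anestrous library 36, and its TMM factor was 0.71. On TMM-adjusted library sizes it stood at 1.09%, rank 8 of 21, with 14 members above their median, while library 22 stood at 0.772% and library 23 at 1.46%.

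The libraries above 23 came from all 3 phases. Follicular library 32 had 28 of 31 members above their PT median and the highest PT value of 18. Its shares of the HT mean ran from 0% to 8.51% by member, and ENSOARG00000000548 led with 52.7 CPM against a PT median of 6.19 CPM. Luteal library 26, at 2.62%, had 26 members above their median and the highest value of 4, led by ENSOARG00000004361 at 8.81 CPM. Anestrous library 42, at 2.24%, was led by ENSOARG00000004374 at 119 CPM against a PT median of 23.6 CPM. On TMM-adjusted sizes libraries 32, 26 and 42 stood at 2.97%, 2.40% and 2.101% and kept the first 3 places. The place of library 42 rested on the members with the most counts. Without the 10 largest it stood at 1.54%, behind libraries 32 (2.73%), 36 (1.96%), 26 (1.90%) and 23 (1.78%). By the median over members, library 23 was at rank 3 and library 42 at rank 4.

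In libraries 32, 26, 42 and 23 the trace was larger in the bins of features more enriched in HT. These bins use the tissue difference, which PT values entered, so they are a description. The libraries were also picked for their high member sums, which makes a high last bin likely beforehand. In library 32 the median feature lay 0.04 above its own PT median on the log2 scale among 11053 features with a tissue difference of -1 to 1. It lay 0.19 above among the 1910 at 1 to 3, 0.49 above among the 199 at 3 to 5 and 1.47 above among the 31 members. In library 26 the last 2 values were 0.28 and 0.96, in library 23 they were 0.43 and 0.94 and in library 42 they were 0.21 and 0.59. Luteal library 28 had 0.18 and 0.66, after 0.29 at 1 to 3, so its values did not rise evenly. Anestrous library 38, with the lowest sum, went the other way, at -0.49 and -0.70. Library 22 had 0.03 and 0.00. Library 24 had -0.48 and -0.26, beside -0.57 among features at -1 to 1, so the median member lay below its PT median, by less than the median feature of every other bin.

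The 15 features enriched in PT were near their PT mean in 4 of these libraries. Their sum was 103% of its PT mean in library 32, 97.1% in library 26, 92.7% in library 23 and 101% in library 22. It was 78.7% in library 42 and 59.5% in library 24, and ran from 59.3% to 135% over all PT libraries. The part of tissue makeup in the member levels of any library was not tested.

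**Figure D5:**
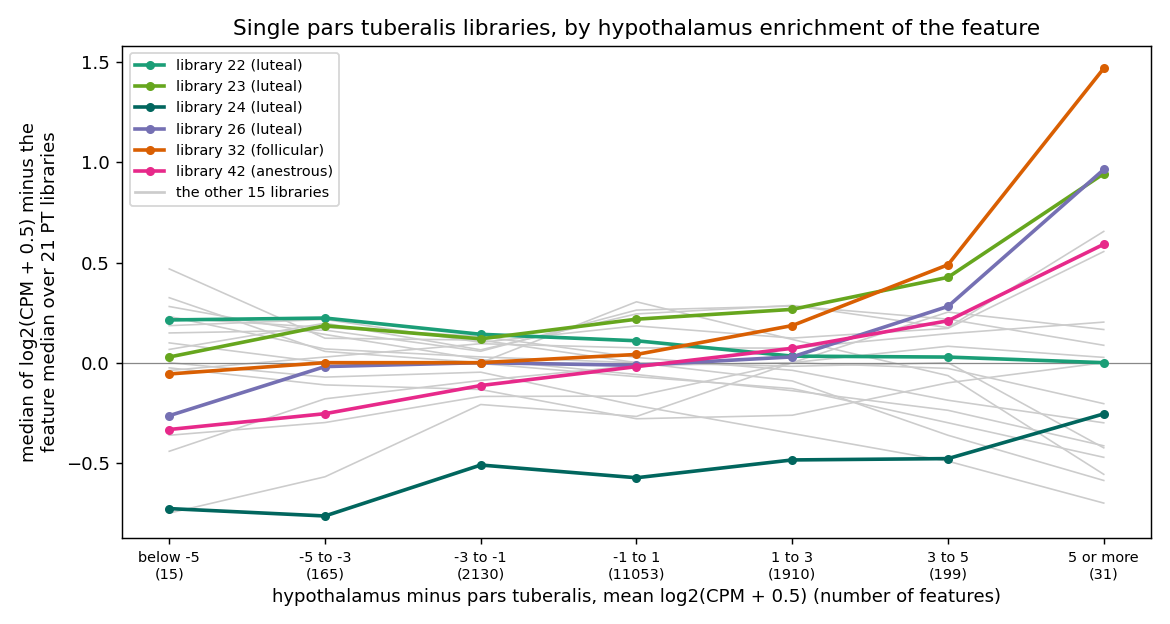
For each PT library, the median over features of log2(CPM + 0.5) minus the feature's median over 21 PT libraries (vertical axis), in 7 bins of the tissue difference (horizontal axis, with the number of features in each bin). Coloured lines are libraries 22, 23, 24, 26, 32 and 42 and grey lines the other 15, and the line of library 32 ends highest, at 1.47 among the 31 members, with that of library 24 at -0.26.

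2 members had their highest PT value in anestrous library 36, both named after their values were seen. ENSOARG00000014774 had 19.7 CPM there, 17.01% of its HT mean, while the other 6 anestrous PT libraries had 0.571 to 2.96 CPM and the summed level of library 36 was 1.32% of the HT mean. ENSOARG00000003936 had 10.4 CPM there, against a PT median of 1.92 CPM.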

How the data were processed

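The values are raw counts, as the authors deposited them in 1 table of Ensembl sheep IDs by 42 libraries. The submitters' processing notes list HISAT2 2.1.0, StringTie 1.3.5, DESeq2, R 3.5.1, FastQC 0.11.5, SAMtools 1.7 and Trimmomatic 0.38, without their roles. Not given in the sources used here are the build, the annotation, the strand setting and the handling of reads shared by paralogs, which leaves the counts of overlapping or near-identical genes uncertain. 0 columns belonged to no sample, and 3463 features were 0 in every library.

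CPM used column totals, and log2 values a pseudocount of 0.5. Phase tests used the quasi-likelihood F test of edgeR 4.0.16 under R 4.3.3 (robust, two-sided, TMM, filterByExpr with a minimum count of 10, Benjamini-Hochberg over all features tested, threshold 0.05). One fit per tissue held its 3 phases, and 1 fit of all 42 libraries gave the differences between tissues. No pairing by ewe entered, since no label ties libraries to ewes. Alternatives were RLE size factors, DESeq2 1.42.0, limma-voom with sample weights (limma 3.58.1), no filter, libraries 22, 23 and 24 left out, and each library left out. The tests were checked on simulated data.

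Members and lists were chosen with earlier results of these data known. Members named were those with the most HT counts, the largest tissue difference, the widest and narrowest HT spread, the most PT counts, the largest rise in libraries 22, 23 and 24, the position nearest the threshold, and the lowest p in each comparison. Prepared lists of marker genes could not be used, because the reference table (ARS-UI_Ramb_v3.0, 35057 genes) matched 0 IDs.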

Additional observations from a re-analysis of the deposited data

Results flagged for a closer look

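Among 89 groups of 7 libraries, 6 had a lowest or highest library far from the other 6 (gap over range above Dixon's 95% critical value). Chance flags about 1 in 20 groups. In HT, ENSOARG00000014774 was at 28.6 CPM in follicular library 11, against 107 to 269 CPM in the other follicular libraries, and 23 of the 31 members were lowest in that library. ENSOARG00000011650 was at 86.0 CPM in anestrous library 15, against 14.2 to 30.2 CPM in the other anestrous libraries. In PT, ENSOARG00000014774 was at 19.7 CPM in anestrous library 36, against 0.571 to 2.96 CPM. ENSOARG00000016686 was at 0.250 CPM in anestrous library 38, the library with the lowest summed level, against 1.45 to 3.24 CPM. 2 flags rest on a few counts in a group otherwise at 0, namely ENSOARG00000015772 at 0.390 CPM in luteal library 27 and ENSOARG00000020992 at 0.188 CPM in follicular library 31. No explanation of these values was tested.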

How the results depend on the processing

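The number of members depended on the pseudocount and the phase used: 67 features met the rule with a pseudocount of 0.1 and 47 on the follicular libraries alone, each holding all 31 members, while 25 did with a pseudocount of 1, all of them members. With 1 library left out it was 29 to 34, holding at least 29 of the 31. Members passing after adjustment numbered 0 in all 294 alternative results over the 9 phase comparisons, the lowest adjusted p being 0.0622. Medians of the members changed sign in 16 alternatives. In luteal against anestrous HT the median was -0.14 under limma-voom. With 1 library left out it ran from -0.47 to 0.17 in luteal against follicular HT, above 0 only without library 12. In follicular against anestrous PT it ran from -0.56 to 0.30, below 0 without library 32, 35, 38 or 40. For the PT minus HT difference in luteal against anestrous it ran from -0.18 to 0.51, below 0 without any 1 of 10 libraries (4, 5, 17, 21, 23, 26, 37, 38, 39 and 40). No paired analysis was possible because no label ties a library to a ewe. Low counts limit the PT values: 5 members failed its filter. HT sums on TMM-adjusted sizes were added after the data were seen.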
